A study of Mus musculus with 45 samples.

Results

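The genes described here are the small heat shock proteins of muscle and their partner Bag3 in mouse heart: Hspb1, Hspb2, Hspb3, Hspb6, Hspb7, Hspb8, Cryab and Bag3. They were chosen by gene symbol, and these 8 are 8 of the 23284 genes listed in each expression file. All 8 were found and all 8 had reads in every library.

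The series set the cardiac transcription factor Gata4 and histone marks beside gene expression in developing, adult and loaded hearts. Of its 45 samples, 6 are RNA-seq libraries of heart in 5 groups, and the 39 chromatin immunoprecipitation and input samples were not analysed here. Banding, sham and E12.5 heart labelled Gata4 KO have 1 library each, adult heart has 2, and unlabelled E12.5 heart, from embryos, has 1. In banding a large vessel is narrowed by surgery and the heart works against it, and sham is the surgery without the narrowing. The labels used here give neither the vessel nor the time after surgery nor the age at surgery. They name 4 alleles for the whole series (Gata4fbio, Rosa26BirA, cTNTcre and Gata4flox) and do not say which animals carried which. In cTNTcre the cardiac troponin T promoter drives Cre in cardiomyocytes, so a deletion made with it leaves Gata4 in the other cells of the heart. RNA was pooled before library preparation, and whether separate animals or pools gave the 2 adult libraries is not stated. A p-value here therefore measures only the spread between those 2 libraries, which may be technical.

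Small heat shock proteins are ATP-independent chaperones. They hold unfolding proteins, in muscle chiefly those of the Z-disc, intermediate filaments and thin filaments, until ATP-driven chaperones refold or remove them. Bag3 is a co-chaperone that ties small heat shock proteins, above all Hspb8 and Hspb6, to HSP70, and hands damaged proteins such as filamin C to selective autophagy. Mutations in human CRYAB and BAG3 cause myofibrillar myopathy and cardiomyopathy. Part of the family answers to the heat shock factor Hsf1, which binds inverted GAA repeats called heat shock elements.

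Promoters are shown for members whose letters hold a match to such an element. RefSeq's promoter table for GRCm38.p6 gives 300 bases per entry, 250 before a start site and 50 after it. It holds entries for Hspb1, Hspb3, Hspb6, Hspb7, Hspb8 and Bag3, with 2 entries for Hspb6. Hspb2 and Cryab have no entry, so their promoters were not searched. The motifs searched on both strands were GAANNTTC and TTCNNGAA (heat shock element), the GATA site as AGATAA or TGATAA, in both cases also with G as last letter, TATAAA, and the CArG box by its name. GAANNTTC and TTCNNGAA are single pairs of inverted GAA units, and heat shock element is below only a label for these letters. In the 5 stretches below, written 5′ to 3′ on the gene's strand, capitals mark GAANNTTC and TATAAA. The Hspb6 stretch is chr7:30553141-30553300 on the plus strand, Hspb8 is chr5:116422845-116422964 on the minus strand, Bag3 is chr7:128523603-128523632 on the plus strand, Hspb1 is chr5:135887759-135887918 on the plus strand and Hspb3 is chr13:113663677-113663926 on the minus strand.
Hspb6: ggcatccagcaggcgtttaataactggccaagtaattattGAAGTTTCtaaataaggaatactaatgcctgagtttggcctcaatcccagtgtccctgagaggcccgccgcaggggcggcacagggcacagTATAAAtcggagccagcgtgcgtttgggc
Hspb8: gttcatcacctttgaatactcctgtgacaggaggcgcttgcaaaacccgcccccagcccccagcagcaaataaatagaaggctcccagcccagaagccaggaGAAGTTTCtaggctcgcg
Bag3: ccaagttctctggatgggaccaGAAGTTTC
Hspb1: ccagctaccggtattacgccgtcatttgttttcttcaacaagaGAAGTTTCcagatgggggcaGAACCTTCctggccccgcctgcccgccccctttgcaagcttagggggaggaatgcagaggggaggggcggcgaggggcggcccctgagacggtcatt
Hspb3: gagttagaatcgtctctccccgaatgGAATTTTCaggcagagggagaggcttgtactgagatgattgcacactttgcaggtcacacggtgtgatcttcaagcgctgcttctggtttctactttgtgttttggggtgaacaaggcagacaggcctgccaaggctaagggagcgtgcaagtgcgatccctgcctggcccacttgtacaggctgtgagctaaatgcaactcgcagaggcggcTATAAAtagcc

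Hspb1 carried 2 heat shock elements, GAAGTTTC and GAACCTTC, whose first bases lie 117 and 97 bases before the start site. Hspb6 carried GAAGTTTC 120 bases before the start of its second entry, with TATAAA 29 bases before that start. The same 8 letters, GAAGTTTC, occurred at position 3 after the start in Hspb8 and at position 43 after it in Bag3. Hspb3 had GAATTTTC 224 bases before its start and TATAAA 11 bases before it. Among all 32851 promoters of the table, 15.1% held a heat shock element in either form and 7.86% held GAANNTTC. TATAAA occurred in 13.6%, any of the GATA letters in 29.8% and the CArG box in 1.63%. The first Hspb6 entry held a GATA site, TGATAG, 179 bases before its start, and the Hspb7 entry held none of the motifs. These are matches of letters in the window and say nothing of binding.

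All levels are log2(FPKM + 1) as deposited, where FPKM counts fragments per kilobase of transcript, scaled to the library's mapped reads. Mapped reads ran between 12086929 and 21056784 per library. The share of mapped reads on listed genes was 58.0% in banding and 55.6% in sham, against 83.6% and 83.9% in adult, 76.8% in the library labelled Gata4 KO and 75.9% in E12.5. Since mapped reads are the divisor of FPKM, this lowers most genes in banding and sham relative to the rest. Rn45s, the ribosomal RNA precursor, stood at 12.96 in banding and 12.94 in sham, against 8.65 and 8.94 in adult, 6.21 in the library labelled Gata4 KO and 7.56 in E12.5. Rn45s is itself a listed gene, with 652906 reads in banding and 552795 in sham. Its reads thus lie within the share on listed genes and do not account for the reads outside it. None of the 8 cardiomyocyte markers was at 0 in any library, and their summed FPKM was 27930 in banding, 31050 in sham, 55856 and 55697 in adult, 26354 in the library labelled Gata4 KO and 38364 in E12.5. In bulk heart, fewer cells of a type and less RNA per cell cannot be told apart.

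**Figure D1:**
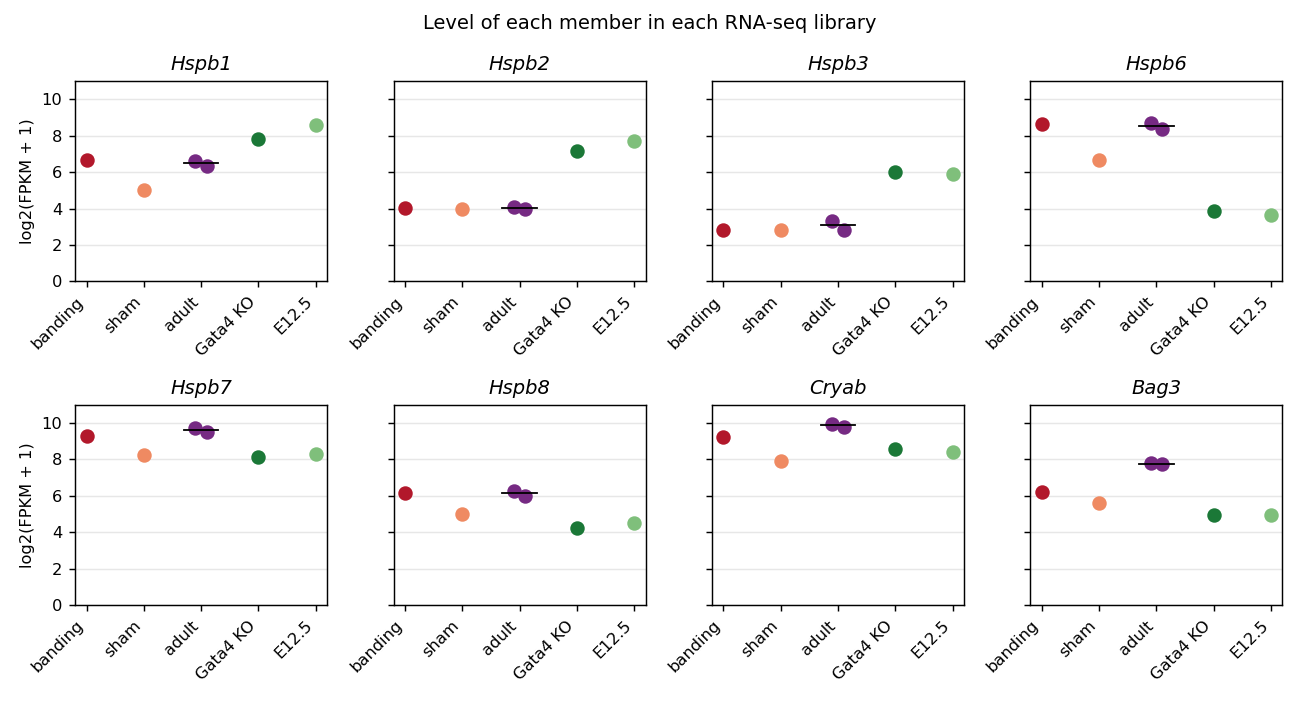
Level of each gene, as log2(FPKM + 1) on the vertical axis, in banding, sham, adult, the E12.5 library labelled Gata4 KO and E12.5. Each point is 1 library, and adult has 2. Hspb1, Hspb2 and Hspb3 are highest in the E12.5 libraries, while Hspb6 stands near 8.5 in adult and below 4 in both E12.5 libraries.

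Cryab (αB-crystallin, a chaperone of desmin and titin) and Hspb7 (a cardiovascular small heat shock protein needed for normal thin filaments in mouse heart) were the members of highest level in every library except E12.5. Cryab stood at 9.21 in banding, 7.89 in sham, 9.96 and 9.78 in adult, 8.56 in the library labelled Gata4 KO and 8.43 in E12.5. Among the 23284 listed genes it ranked 43rd in banding, 99th in sham, 40th and 47th in adult, 117th in the library labelled Gata4 KO and 159th in E12.5. Hspb7 stood at 9.31 in banding, 8.26 in sham, 9.70 and 9.48 in adult, 8.12 in the library labelled Gata4 KO and 8.32 in E12.5. In E12.5 the order was different, with Hspb1 at 8.59 above Cryab and Hspb7. For both Cryab and Hspb7 the adult libraries were highest as deposited. Under 4 other scalings (TPM, median of ratios, upper quartile, and a sum without the 50 highest genes), banding minus adult ran between -0.20 and 0.01 for Cryab and between 0.18 and 0.40 for Hspb7.

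The summed FPKM of the 8 genes was 1894 in banding, 772 in sham, 2658 and 2297 in adult, 1148 in the library labelled Gata4 KO and 1369 in E12.5. As a share of the summed FPKM of all listed genes this was 0.764% in banding and 0.346% in sham. The share was 0.739% and 0.630% in adult, 0.264% in the library labelled Gata4 KO and 0.319% in E12.5. Sham thus lay near the E12.5 libraries and banding near the adult ones in this share. The make-up changed as well as the sum. Hspb1 made up 3.60% and 3.54% of the summed FPKM of the 8 genes in adult, against 28.0% in E12.5. Hspb2 made up 0.593% and 0.633% in adult, against 14.9% in E12.5. For Hspb6 the shares were 15.5% and 14.3% in adult, against 0.830% in E12.5.

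**Figure D2:**
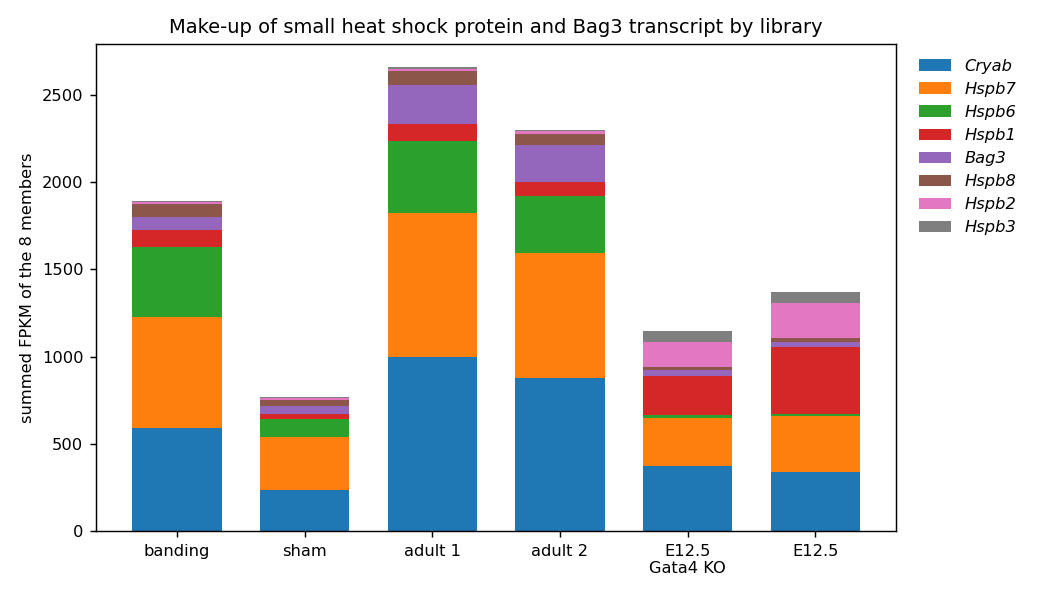
Summed FPKM of the 8 genes on the vertical axis in each of the 6 libraries, each bar split by gene. Sham has the shortest bar (772) and adult replicate 1 the tallest (2658), and Hspb1 and Hspb2 take a large part of the bar in the 2 E12.5 libraries and a small part in the other libraries.

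Adult heart was first set against E12.5 heart, the developmental comparison of the series. Of the 8 genes, 5 rose in adult (Hspb6, Bag3, Hspb8, Cryab and Hspb7) and 3 fell (Hspb1, Hspb2 and Hspb3) by limma at an adjusted p under 0.05 over 12658 genes. The same 5 and 3 passed a rule of size, which asks for a 2-fold difference and, in the higher group, a level of 5 FPKM or more. Calls were frequent across the whole transcriptome in this comparison. limma called 23.4% of genes higher and 48.4% lower, 71.8% in all, and the rule of size counted 11.8% higher and 27% lower. The rule needs 5 FPKM, which 8900 of the 12658 genes reached in some library, the 8 members included. A call by itself was therefore common here, and the sizes and directions of the 8 are given in what follows. Over all genes tested the median difference was -0.51, with 36.4% above 0, and over the 8 genes it was 1.36, with 5 above 0.

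Hspb6 (Hsp20, a phosphorylated small heat shock protein of heart and smooth muscle) had the widest range of the 8. It stood at 8.69 and 8.37 in adult, with 6899 and 5386 reads, against 3.63 in E12.5, with 317 reads. No adult library came near the E12.5 library. Its mean was 8.53 ± 0.23 in adult (SD, n = 2), and limma gave a difference of 4.90 with a standard error of 0.19 and an adjusted p of 0.00408. With the reads of the 2 adult libraries pooled, FPKM in adult was 32.7 times the E12.5 value. Hspb6 ranked 104th and 135th among listed genes in adult, against 4790th in E12.5. In the annotation Hspb6 overlaps Lin37, and reads of overlapping genes cannot be told apart without strand, which the sources used here do not state.

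Bag3, the co-chaperone, stood at 7.82 and 7.72 in adult, against 4.93 in E12.5. The adult mean was 7.77 ± 0.07 (SD, n = 2), and the difference was 2.85 with a standard error of 0.08 and an adjusted p of 0.00398 by limma. Its FPKM ratio of adult over E12.5 was 7.41. Hspb8, the small heat shock protein that binds Bag3 most directly, stood at 6.24 and 6.02 in adult, against 4.50 in E12.5. It rose by 1.63 with a standard error of 0.14 (limma, adjusted p = 0.00845), which was 3.20-fold in FPKM. Bag3 stood above Hspb8 in all 6 libraries, though in banding they were almost level, at 6.20 for Bag3 and 6.18 for Hspb8. The distance between their levels was wider in adult than in E12.5.

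The 2 most abundant chaperones rose less. Cryab, at 9.96 and 9.78 in adult against 8.43 in E12.5, rose by 1.45 with a standard error of 0.12 (limma, adjusted p = 0.00824). Its mean was 9.87 ± 0.13 in adult (SD, n = 2). Hspb7 rose by 1.27 with a standard error of 0.14 (limma, adjusted p = 0.0119), with 9.70 and 9.48 in adult and 8.32 in E12.5. The FPKM ratio of adult over E12.5 was 2.74 for Cryab and 2.43 for Hspb7. The separation from E12.5 exceeded the distance between the adult libraries for each of the 5 genes that rose. Replicate 1 was the higher adult library for all 8 genes, by 0.10 (Bag3) to 0.45 (Hspb3). Between these libraries the rule of size counted 0.138% of genes higher and 0.147% lower, none of them a member.

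Hspb2 (a small heat shock protein that binds the myotonic dystrophy kinase) fell furthest. It stood at 4.07 and 3.96 in adult, with 167 and 151 reads, against 7.68 in E12.5, with 3615 reads. limma gave a difference of -3.67 with a standard error of 0.09 and an adjusted p of 0.00398, and the FPKM ratio was 0.0742. Hspb3, which forms complexes with Hspb2 in muscle, stood at 3.30 and 2.85 in adult, against 5.88 in E12.5. Its difference was -2.81 with a standard error of 0.26 (limma, adjusted p = 0.00927) and its FPKM ratio was 0.130. Hspb3 had the fewest reads of the 8, with 87 and 60 in adult, and the widest distance between the adult libraries, 0.45.

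Hspb1 (Hsp25 in mouse, which binds actin filaments and is phosphorylated under stress) stood at 6.60 and 6.36 in adult, against 8.59 in E12.5. The mean was 6.48 ± 0.16 in adult (SD, n = 2), and the difference was -2.11 with a standard error of 0.14 and an adjusted p of 0.0064 by limma. Its FPKM ratio was 0.231. Hspb1 was the member of highest level in E12.5 and only the fifth in adult. Hspb1 amounted to 0.172% and 0.146% of the summed FPKM of the cardiomyocyte markers in adult, against 0.999% in E12.5. That sum was itself higher in adult, 55856 and 55697 against 38364 in E12.5, which widens the fall, so this share is no separate check of it.

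Hspb2 and Cryab lie together on chromosome 9, and in the annotation their spans overlap. A further protein-coding gene listed in the files, 2310030G06Rik, also overlaps Cryab there. Hspb2 had 1.58% and 1.65% of the FPKM of Cryab in adult, against 59.6% in E12.5. The pair thus moved in opposite directions, Cryab up and Hspb2 down in adult. The annotation cannot tell how reads in the shared span were counted, so the values of Hspb2 and Cryab are uncertain to that degree.

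Red cells are a second tissue in the embryonic samples. The 5 erythroid markers summed to 0.521 and 1.31 FPKM in adult, against 21255 in E12.5. Of the 5 smooth muscle markers 2 rose and 2 fell by limma. Myh11, smooth muscle myosin, rose by 5.51 and Rgs5, a pericyte gene, by 6.21 (adjusted p = 0.00398 for each), while Cnn1 fell by 4.31 (adjusted p = 0.00398) and Acta2 by 1.53 (adjusted p = 0.00418). Their summed FPKM was 301 and 314 in adult, against 518 in E12.5. The 7 skeletal muscle markers summed to 0.895 and 0.794 FPKM in adult, against 5.20 in E12.5. The 7 fibroblast markers summed to 107 and 134 FPKM in adult and 122 in E12.5, a sum of members that went both ways, 2 rising and 3 falling by limma. Dcn rose by 2.10 (adjusted p = 0.00844) and Lum by 1.67 (adjusted p = 0.00931), while Tcf21 fell by 3.13 (adjusted p = 0.00602), Col1a1 by 1.96 (adjusted p = 0.00945) and Col1a2 by 1.75 (adjusted p = 0.0147). The part of these cell types in the differences of the 8 genes was not tested.

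**Figure D3:**
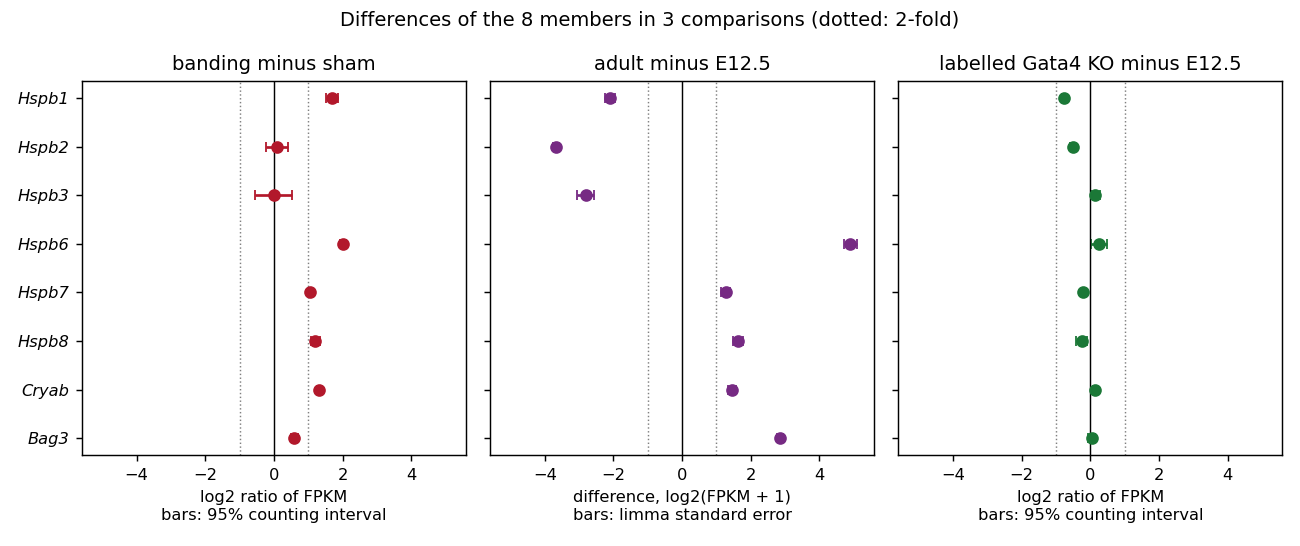
Differences of the 8 genes in banding minus sham, adult minus E12.5, and the library labelled Gata4 KO minus E12.5, on a log2 scale. In the outer panels points are log2 ratios of FPKM with 95% counting intervals; in the middle panel points are differences of log2(FPKM + 1) with limma standard errors, and dotted lines mark 2-fold. Adult minus E12.5 spans -3.67 (Hspb2) to 4.90 (Hspb6), banding minus sham has 5 genes past 2-fold on the right, and the last panel has none past 2-fold.

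The genes that work with Bag3 went both ways between adult and E12.5. Of 12 genes of Bag3-linked autophagy, 6 rose and 4 fell by limma. Over all genes tested limma called 23.4% higher and 48.4% lower, the shares to set beside the counts of this and the following lists. Hspa8 (the constitutive HSP70) stood at 10.66 and 10.49 in adult, against 5.63 in E12.5 (difference 4.94, limma adjusted p = 0.00398). Synpo2, a Z-disc adaptor that carries Bag3 cargo to autophagosomes, rose by 1.93 (adjusted p = 0.00418). Stub1, the ubiquitin ligase of the chaperone system, stood at 3.22 and 3.37 in adult, against 5.90 in E12.5 (difference -2.60, adjusted p = 0.00439). Vps18, of the vacuolar sorting machinery, fell by 1.44 (adjusted p = 0.00844). Values of genes with processed pseudogenes, such as Hspa8, Hsp90aa1 and Hspd1, are uncertain, since reads of near-identical copies may be split.

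Within the BAG family 1 of the 5 other members rose and 2 fell. Bag1 rose by 3.02 (limma, adjusted p = 0.00398), to 8.25 and 8.27 in adult against 5.23 in E12.5, so Bag3 was not the only member of its family to do so. Bag6 fell by 1.47 (adjusted p = 0.00467) and Bag4 by 0.87 (adjusted p = 0.0171).

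Of 14 heat shock factors and targets, 11 passed the filter on low values, of which 6 rose and 3 fell. Hsp90aa1 rose by 2.93 (limma, adjusted p = 0.00554) and the mitochondrial chaperonin Hspd1 by 1.91 (adjusted p = 0.00398). Hsf1, the factor itself, fell by 1.48 (adjusted p = 0.00742), to 2.91 and 2.80 in adult against 4.33 in E12.5, and Dnajb1, an HSP40 co-chaperone, fell by 2.36 (adjusted p = 0.0172).

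Among 13 clients and genes of myofibrillar myopathy 6 rose and 1 fell. Myot (myotilin) rose by 4.58 (limma, adjusted p = 0.0101), Dnajb6 by 3.97 (adjusted p = 0.00398) and Ttn (titin) by 2.70 (adjusted p = 0.00493), while Vim (vimentin) fell by 2.27 (adjusted p = 0.0111). Of 4 further genes listed here beside the small heat shock proteins, 1 passed the filter on low values. This was Hspb11, which fell by 2.24 (limma, adjusted p = 0.00583), and whether it works as a chaperone was not examined.

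Banding was next set against sham, the disease comparison of the series, with 1 library each and so no replicate check and no p-value. Of the 8 genes, 5 were higher in banding by the rule of size (Hspb6, Hspb1, Cryab, Hspb8 and Hspb7) and 0 were lower. Across 11011 genes the same rule counted 1.16% higher and 0.463% lower, 128 and 51 genes, against 114 higher and 118 lower without the 50 highest genes in the scaling. Only 5108 of the 11011 genes reached 5 FPKM in either library and could pass, the 8 members included. The median difference was 0.03 over all genes, with 54.4% above 0, and 1.12 over the 8, with 7 above 0. Intervals given for ratios are exact 95% counting intervals, cover counting error only, and do not include variation between animals.

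Hspb6 had the largest difference, 8.66 in banding against 6.65 in sham, with 7468 reads in banding and 1594 in sham. Its FPKM ratio was 4.04 (3.83 to 4.27). Hspb1 stood at 6.66 in banding, against 5.01 in sham, a ratio of 3.21 (2.84 to 3.62). These were the only members with a ratio above 3.

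Cryab stood at 9.21 in banding, against 7.89 in sham, a ratio of 2.50 (2.41 to 2.60). Hspb8 stood at 6.18 in banding, against 5.002 in sham, a ratio of 2.31 (2.11 to 2.52). Hspb7 stood at 9.31 in banding, against 8.26 in sham, a ratio of 2.08 (2.03 to 2.13). Hspb7 sat nearest to the threshold. Its difference of 1.05 came to 0.90 when FPKM was rescaled to the same sum over listed genes (TPM) and to 0.91 when that sum left out the 50 highest genes, so that 4 members were past 2-fold under either scaling.

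Bag3 stood at 6.20 in banding, against 5.61 in sham, a ratio of 1.52 (1.42 to 1.62) that did not reach 2-fold. Hspb2 had 4.06 in banding and 3.98 in sham, a ratio of 1.06 (0.848 to 1.32). For Hspb3 the values were 2.81 in banding and 2.82 in sham, a ratio of 0.999 (0.690 to 1.45). With 66 reads in banding and 57 in sham, a difference of Hspb3 smaller than that interval was not detectable at this depth. Hspb1, Hspb2 and Hspb3, which all fell in adult against E12.5, were thus not alike between banding and sham. Whether the heat shock elements found in the promoter windows bear on these differences was not tested.

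Cell type markers were measured beside these values. The 8 cardiomyocyte markers had a median difference of -0.15 for banding minus sham, with 2 above 0 and 6 below, and none past the rule of size. The 7 fibroblast markers were all higher in banding, 5 of them by the rule of size, and summed to 683 FPKM in banding against 258 in sham. The 5 smooth muscle markers were all above 0, with a median of 0.40 and none past the rule of size, and summed to 128 FPKM in banding and 101 in sham. Leukocyte markers summed to 52.6 FPKM in banding and 37.6 in sham, and endothelial markers to 230 FPKM in banding and 244 in sham. The part of these cell types in the result was not tested. Per summed cardiomyocyte marker FPKM, Hspb6 amounted to 1.44% in banding and 0.321% in sham, Cryab to 2.12% in banding and 0.762% in sham, and Bag3 to 0.259% in banding and 0.154% in sham. That marker sum was itself lower in banding, 27930 against 31050 in sham, which widens these differences. The shares are therefore no separate check of them.

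Partners and clients of the family were counted by the same rule. Of 12 genes of Bag3-linked autophagy none passed it in either direction, 9 were above 0 and the median difference was 0.20. Synpo2 stood at 3.33 in banding and 2.76 in sham, and Hspa8 at 8.90 in banding and 8.44 in sham. None of the 4 measured other BAG genes passed. Hsp90aa1 was the one gene of 12 measured heat shock factors and targets that did, with 8.48 in banding against 6.93 in sham. Of 13 clients, 4 were higher and none lower. Acta1 (skeletal α-actin, a gene of the fetal and loaded heart) stood at 9.59 in banding against 6.48 in sham, and Fhl1, a LIM-domain protein of the sarcomere, at 4.64 in banding against 2.67 in sham. Des (desmin) stood at 10.56 in banding against 9.21 in sham, and Flnc (filamin C, the client that Bag3 clears) at 4.79 in banding against 3.59 in sham.

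Sham was also set beside the unoperated adult libraries and beside E12.5. These comparisons share the sham library with the previous one, and the adult and E12.5 libraries with the first, so none of them is independent. Against adult, 6 of the 8 genes were lower in sham by the rule of size, where 22.2% of 11582 genes were lower and 3.01% higher. Of those 11582 genes 6860 reached 5 FPKM in some library and could pass, and all 2569 lower genes were among them. All 8 differences lay below 0, where 30.8% of all genes lay above it, and their median was -1.40 against -0.44 over all genes. Over the genes that reached 5 FPKM the median was -0.74. Bag3 had the largest, 5.61 in sham against 7.82 and 7.72 in adult, a ratio of 0.219. Cryab followed with 7.89 in sham against 9.96 and 9.78 in adult (ratio 0.252) and Hspb6 with 6.65 in sham against 8.69 and 8.37 in adult (ratio 0.268). Hspb2 stood at 3.98 in sham, within the 4.07 and 3.96 of the adult libraries, and Hspb3 at 2.82 lay just below its lower adult library. All 8 cardiomyocyte markers were below 0 in sham against adult as well, with a median of -1.05, and so were all 5 smooth muscle markers, with a median of -1.56 and 3 past the rule of size. Their part in the result was not tested.

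How far this goes depends on the scaling. Under each of 4 other scalings 3 genes (Hspb6, Cryab and Bag3) stayed at least 2-fold lower in sham, and Hspb2 and Hspb3 were above 0. Over those scalings the difference of Bag3 ran between -1.66 and -1.41, that of Cryab between -1.47 and -1.22, that of Hspb6 between -1.37 and -1.12, and that of Hspb1 between -0.97 and -0.72. The median over all genes moved to between -0.01 and 0.21. The split over all genes, 349 higher and 2569 lower as deposited, became 1249 higher and 1145 lower with TPM and 1390 higher and 1029 lower without the 50 highest genes. For banding minus sham, Hspb6 ran between 1.86 and 1.96 and Hspb1 between 1.51 and 1.61 under the same scalings.

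**Figure D4:**
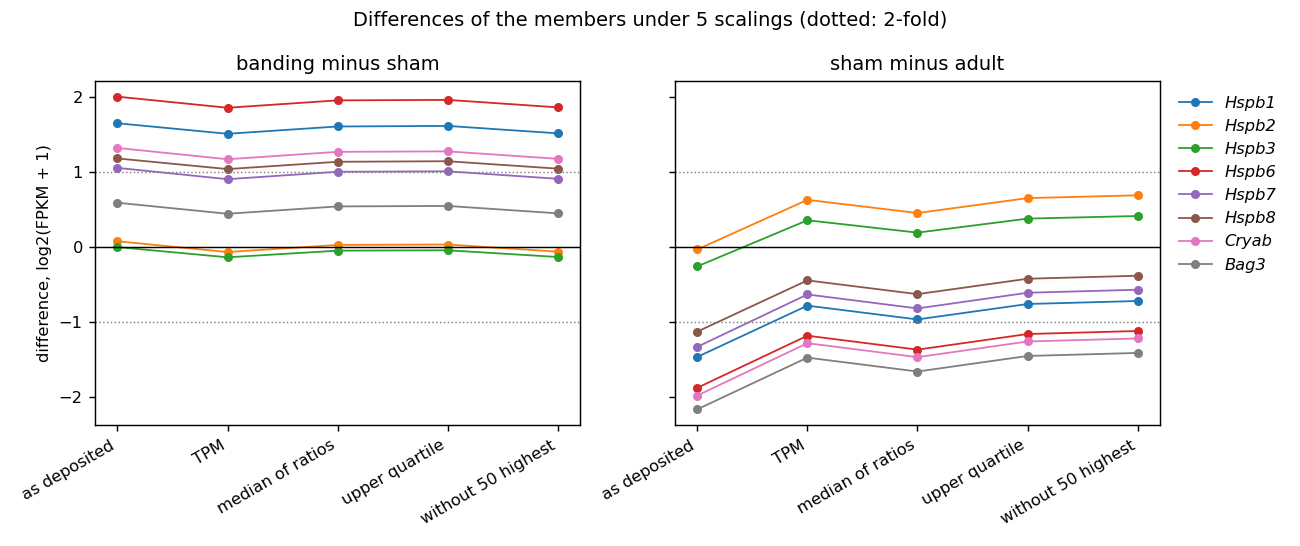
Differences of log2(FPKM + 1) for banding minus sham and sham minus adult under 5 scalings of the same libraries, with 1 line per gene and dotted lines at 2-fold. Hspb7 crosses the upper dotted line in banding minus sham, and Hspb1, Hspb7 and Hspb8 leave the range beyond the lower dotted line in sham minus adult, while Hspb6, Cryab and Bag3 stay beyond it.

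Banding was set beside adult after the values were seen. By the rule of size 1 of the 8 genes was lower in banding, Bag3, with 6.20 in banding against 7.82 and 7.72 in adult (ratio 0.332, 0.319 to 0.347). Across 11646 genes 21.2% were lower and 3.65% higher by that rule, and 33.2% had a difference above 0, as had 4 of the 8. Only 6889 of the 11646 genes reached 5 FPKM in some library and could pass. The counts were 425 higher and 2474 lower as deposited, against 1400 higher and 1130 lower with upper-quartile scaling. Under the 4 other scalings 6 or 7 of the 8 lay above 0, and without adult replicate 2 it was 1 of the 8. As deposited, Hspb6 at 8.66 and Hspb8 at 6.18 in banding lay between their 2 adult libraries, and Hspb1 at 6.66 lay 0.07 above its higher one. Under the 4 other scalings the differences ran between 0.59 and 0.80 for Hspb6, 0.51 and 0.72 for Hspb8, and 0.64 and 0.85 for Hspb1. Cryab at 9.21 lay below both adult libraries as deposited, with differences of -0.75 and -0.57, against -0.20 to 0.01 under the other scalings. With upper-quartile scaling, and with a sum without the 50 highest genes, Bag3 was no longer 2-fold lower, with differences of -0.91 and -0.96 under those scalings.

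Against E12.5, sham had 1 gene higher (Hspb6) and 3 lower (Hspb1, Hspb2 and Hspb3), where the rule counted 6.84% of 12731 genes higher and 39.1% lower. Those able to pass, with 5 FPKM in either library, were 8544 of the 12731. A difference above 0 was found for 3 of the 8 and for 25.4% of all genes. With upper-quartile scaling 2306 genes were higher and 2243 lower, against 871 and 4976 as deposited, and under all 4 other scalings 5 of the 8 lay above 0. Hspb6 differed by 3.02, and Hspb1, Hspb2 and Hspb3 by -3.57, -3.70 and -3.07. Hspb7, Hspb8, Cryab and Bag3 differed by -0.06, 0.50, -0.53 and 0.68. Under the 4 other scalings Bag3 differed by between 1.60 and 1.85 and Hspb8 by between 1.41 and 1.66, both 2-fold higher. Hspb7 then differed by between 0.88 and 1.14, and Cryab, below 0 as deposited, by between 0.41 and 0.67.

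The last comparison sets the E12.5 library labelled Gata4 KO against E12.5, and asks what depends on Gata4 in the embryonic heart. Gata4 itself stood at 6.13 in the library labelled Gata4 KO and 5.93 in E12.5, with 4159 reads in the library labelled Gata4 KO and 4290 in E12.5, a ratio of 1.15 (1.10 to 1.20). The Gata4 level therefore does not separate this library from its control, and whether reads outside a deleted part remained was not tested. None of the 8 genes passed the rule of size, where 0.929% of 12062 genes were higher and 0.506% lower, 112 and 61 genes, against 121 higher and 40 lower without the 50 highest genes in the scaling. Of the 12062 genes, 8218 reached 5 FPKM in either library and could pass. The median difference was -0.02 over all genes and -0.08 over the 8, with 4 of the 8 above 0, as were 46.4% of all genes.

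Hspb1 had the largest difference of the 8, 7.83 in the library labelled Gata4 KO against 8.59 in E12.5, with 3638 reads in the library labelled Gata4 KO and 7290 in E12.5. Its ratio was 0.590 (0.567 to 0.614), and it was the 1 member past 1.5-fold. Hspb2 stood at 7.18 in the library labelled Gata4 KO, against 7.68 in E12.5, a ratio of 0.702 (0.666 to 0.741). Hspb7 had a ratio of 0.871 (0.852 to 0.891) and Hspb8 of 0.839 (0.753 to 0.934).

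The other 4 genes were at or above the E12.5 value. Hspb6 stood at 3.86 in the library labelled Gata4 KO and 3.63 in E12.5, a ratio of 1.19 (1.02 to 1.40). Cryab had a ratio of 1.10 (1.06 to 1.13), Hspb3 of 1.10 (1.00 to 1.21) and Bag3 of 1.03 (0.958 to 1.11). Cell markers differed between these 2 libraries too. Of 8 cardiomyocyte markers 7 were below 0, with a median of -0.42, and all 7 fibroblast markers were above 0, with a median of 0.90. Of the 5 smooth muscle markers 3 were measured, with a median of 1.10 and 2 past the rule of size. The list summed to 1090 FPKM in the library labelled Gata4 KO and 518 in E12.5. Acta2 alone gave 908 FPKM of that sum in the library labelled Gata4 KO and 376 in E12.5. Tagln was also higher in the library labelled Gata4 KO, at 6.29 against 5.19 in E12.5, while Cnn1 was not, at 6.71 against 6.75. All 4 measured leukocyte markers were above 0, with a median of 0.59. Erythroid markers summed to 64667 FPKM in the library labelled Gata4 KO and 21255 in E12.5. Their part in the differences was not tested. Among partners, none of the 12 autophagy genes, 5 BAG genes or 13 measured heat shock genes passed the rule, and 2 of 13 clients did. These were Myot, at 3.05 in the library labelled Gata4 KO against 0.18 in E12.5, and Acta1, at 7.71 in the library labelled Gata4 KO against 6.54 in E12.5.

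Each gene's profile over the 6 libraries was also compared with that of every other gene. Likeness was measured as the root mean square difference between 2 genes' log2(FPKM + 1) values, each centred on its own mean over the 6 libraries, so a small value means alike profiles. The closest pairs of members were Hspb7 with Hspb8 (0.267), Cryab with Hspb7 (0.270) and Hspb2 with Hspb3 (0.305). Hspb2 and Hspb6 were farthest apart, at 3.72. Candidates were the 8647 genes that reached 5 FPKM in some library. Among them the nearest other member ranked 8th for Cryab, 10th for Hspb8 and 32nd for Hspb7, but 212th for Hspb2, 293rd for Hspb3, 352nd for Hspb6, 452nd for Bag3 and 2459th for Hspb1. Most members thus had many genes of nearer profile than any other member. The nearest to Cryab were Ap3s1 (0.149), Pdlim5 (0.219) and Serpinb6b (0.242). The nearest to Hspb7 were Fam122a (0.152), Pdlim5 (0.169) and Lyar (0.194), so Pdlim5 appeared for both. For Hspb8 they were Rala (0.218), Nol3 (0.224) and Rpl31 (0.224).

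Bag3 was nearest to Dhdh (0.142), Timm23 (0.152) and Cox5b (0.168), none of them a member. Hspb2 was nearest to Dhrsx (0.0493), Esco2 (0.0525) and Cmtm7 (0.0649), and Hspb3 to Fads1 (0.107), Lrrc41 (0.109) and Txndc17 (0.113). Hspb1 and Hspb6 had no gene as close, the nearest to Hspb1 being Cenpp (0.277), Rasl11b (0.283) and Eef1e1 (0.284). For Hspb6 they were Bc1 (0.363), Prg4 (0.371) and Ifi203 (0.404). All 6 points of such a profile come from libraries that differ in stage, depth and share of reads on listed genes, so a likeness is a description of these libraries.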

How the data were processed

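Poly(A) RNA-seq of mouse heart was analysed in 6 libraries. Each library started with 2 µg of pooled RNA, per the labels' protocols. Per the submitters' processing notes the series used TopHat 1.4 and HTSeq 0.5.3 beside CASAVA 1.8.2, BWA 0.5.9 and MACS 1.4, with mm9. Which of them made the expression values is not given here. The deposited values are log2(FPKM + 1), a log2 scale recognised from whole-number ratios of low values. Reads were recovered for all 98043 values above 0 within 0.001 of a read, and counting intervals and depths rest on them. No count test was run on the recovered reads.

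limma 3.58.1 (R 4.3.3, mean-variance trend, two-sided, Benjamini-Hochberg adjustment at 0.05) compared adult with E12.5 over the 12658 genes that reached 1 FPKM in some library of the 3. Its spread came from the adult pair (residual degrees of freedom 1, prior 1.535), which stood for the single E12.5 library as well. Other comparisons set 1 library against 1 or against the adult mean, were not tested, and use a rule of size (2-fold on the log2(FPKM + 1) scale, at least 5 FPKM in the higher group). Percentages given beside the rule are over genes that reached 1 FPKM in some library, not all of which could pass. This scale understates changes of low genes. Ratio intervals are exact conditional binomial at 95%. FPKM ratios that involve adult pool the reads and the mapped reads of its 2 libraries.

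Genes named are the 8 members, up to 4 per list with the largest differences past the test or rule (up to 2 where none passed), Gata4, and the 3 nearest genes of each member, leaving out predicted genes, clones and pseudogenes. Members, lists and tests were chosen with earlier results of these data known. Alternatives tried were 4 scalings, a pseudocount of 0.1, other filters, a 1.5-fold rule, each adult library left out, and 3 other limma fits. The sequences are from RefSeq (GRCm38.p6), while the files give no coordinates.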

Additional observations from a re-analysis of the deposited data

How the results depend on the processing

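In adult against E12.5 all 8 genes kept their direction, their 2-fold size and their limma call under every alternative run, with adjusted p between 0.000504 and 0.0409. Leaving out 1 adult library left no test, and the 8 genes stayed past 2-fold. Over all genes limma called 2965 higher and 6123 lower as reported, against 4131 higher and 4409 lower with median-of-ratios scaling, and the rule of size gave 1499 higher and 3421 lower, against 2176 and 2229. The share of higher calls thus moved by over 10 points with scaling. Median-of-ratios scaling moved the median of all genes from -0.51 to -0.05. Banding against sham had 128 higher and 51 lower genes as reported, against 108 and 117 with TPM. A 1.5-fold rule counted 599 genes in banding against sham, 675 in the library labelled Gata4 KO against E12.5 (with 1 member), 4484 in sham against adult and 4467 in banding against adult (with 2 members). In sham against adult 3 members passed under TPM, median-of-ratios and upper-quartile scaling and without the 50 highest genes, where 6 had as deposited. In sham against E12.5 7 members passed with upper-quartile scaling and without the 50 highest genes, where 4 had, and in banding against adult 0 passed under those 2 scalings, where 1 had. No value changed its called direction. Differences that were not called did change sign, as for Cryab in sham against E12.5, -0.53 as deposited and 0.41 to 0.67 under the 4 other scalings. Of 448 member differences under alternatives 126 were counted as moved. Of 128 counts under alternatives 114 stayed within 1.5 times, but each count takes higher and lower together. Sham against adult stayed within that limit with TPM, though 349 higher and 2569 lower became 1249 and 1145. No paired analysis was possible because only the adult RNA-seq libraries carry replicate numbers. Hspb3, with 57 to 87 reads in banding, sham and adult, is the member that depth limits most.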
